A study of Mus musculus with 6 samples.

Results

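The 34 genes described here encode sensors, chaperones, disulfide enzymes, degradation factors and translocon subunits of the endoplasmic reticulum (ER), the compartment in which secreted and membrane proteins fold. They were chosen by gene symbol as the ATF6 and XBP1 arm of the unfolded protein response, by a rule that holds no measured value but was written with earlier results of these data known. Among the 51826 gene rows of the deposited table, each of the 34 symbols matched 1 row, and all 34 passed the filter on low counts that left 16071 genes for testing. By role they are 3 sensors and transcription factors, 12 chaperones and cofactors, 7 disulfide and proline isomerases and oxidases, 10 genes of ER-associated degradation and 2 translocon subunits.

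RNA was sequenced from mouse bone marrow cells, labelled neutrophils, to which microvesicles had been added after isolation; microvesicles are membrane particles that cells shed. The vesicle donors were Hepa1-6 cells, a mouse hepatoma line, and in both groups these donors had been starved of glucose. In the Ctrl_MV group (3 libraries) the donors were wild type, and in the KD_MV group (3 libraries) their ezrin, a protein that links the plasma membrane to actin, had been knocked down. The comparison asks how the RNA of the recipient preparation differed with the kind of vesicle it received. Strain, age, vesicle dose, exposure time and the knockdown construct are not given in the sources used here, and libraries without vesicles are not analysed here. Whether a replicate is an animal, a culture or a repeat of the library is not stated in the labels, so a p-value here weighs a difference against a spread that may be technical. The targeted gene was knocked down in the donors and measured in the recipients, so Ezr (0.08 ± 0.11 on the log2 scale (SE), edgeR adjusted p = 0.569) checks no label.

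Total counts ran from 37346055 to 42043434 per library. KD_MV replicate 3 stood farther from the other KD_MV libraries (chi-square per degree of freedom of 93 and 97.8) than any other libraries of a group stood from each other (20.3 to 37.1). Hemoglobin transcripts took 8.96 to 10.6% of the counts in Ctrl_MV and 1.02 to 1.18% in KD_MV. Levels are given as CPM, counts scaled to a common library size with TMM factors, which are meant to correct for differences in composition. The factors were 0.865 to 0.878 in Ctrl_MV and 1.14 to 1.17 in KD_MV, and the part of hemoglobin in them was not tested. Log2 fold changes are KD_MV minus Ctrl_MV. Scaling by library size alone raised the median of all genes by 0.40 on the log2 scale, so each member would stand about that much higher. Relative to the median of all genes the members' differences were nearly the same under both scalings (Calr 1.48 and 1.48, Hspa5 -0.80 and -0.80, Herpud1 -1.58 and -1.58). This follows from a shift that is nearly the same for all genes, so it is no check of either scaling.

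The neutrophil label was checked against 12 markers, 6 of which were lower and 1 higher in KD_MV. Their summed level was 11103 to 11860 CPM in Ctrl_MV and 6087 to 7683 CPM in KD_MV. Lcn2, a granule protein, made up most of it with 8615 to 8984 CPM in Ctrl_MV and 4345 to 5151 CPM in KD_MV. The defining surface marker Ly6g was low in every library, at 2.04 to 2.77 CPM in Ctrl_MV and 1.68 to 2.05 CPM in KD_MV. Markers of cells that secrete much protein moved with the groups as well. Of 15 tested plasma cell markers 11 were higher and 1 was lower in KD_MV, and the defining marker Tnfrsf17 was at 0 in all 6 libraries. Their summed levels were 2778 to 3484 CPM in Ctrl_MV and 4989 to 6267 CPM in KD_MV. Most of this was Ighm (1272 to 1704 and 2763 to 3460 CPM) and Igkc (363 to 556 and 881 to 1311 CPM). Slamf7, the next most abundant, was the marker that was lower (523 to 657 CPM in Ctrl_MV and 285 to 370 CPM in KD_MV). Of 10 eosinophil markers 7 were higher and 0 lower, and their sum went from 44.6 to 46.0 CPM in Ctrl_MV to between 502 and 682 CPM in KD_MV. Of 9 markers of neutrophil precursors, which make granule proteins, 6 were higher and 1 lower, with sums of 52.0 to 62.8 CPM in Ctrl_MV and 81.4 to 96.3 CPM in KD_MV. Of 11 megakaryocyte and platelet markers 8 were higher and 1 lower (173 to 221 CPM and 214 to 246 CPM), and of 14 monocyte and macrophage markers 7 were higher and 3 lower (2416 to 2539 CPM and 2017 to 2232 CPM). Of 13 tested erythroid markers 0 were higher and 10 lower. B cell markers, 7 of 13 higher and 3 lower, summed to 973 to 1191 CPM in Ctrl_MV and 1921 to 2021 CPM in KD_MV. Of 18 markers of hepatocytes and hepatoma, the lineage of the vesicle donors, 8 were at 0 in all libraries and 4 were tested, of which 3 were lower and 0 higher. Their sums were 27.8 to 38.4 CPM in Ctrl_MV and 8.59 to 12.9 CPM in KD_MV. Afp made up most of these sums, with 21.9 to 33.8 CPM in Ctrl_MV and 6.12 to 9.12 CPM in KD_MV (-1.78, edgeR adjusted p = 0.000154). These marker levels differ between the groups alongside every result below, and their part in those results was not tested. In bulk RNA a change in the share of cells of a type and a change in RNA per cell cannot be told apart.

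When unfolded protein builds up in the ER, the membrane protein ATF6 moves to the Golgi and is cleaved into a transcription factor, and the kinase and nuclease IRE1 (Ern1) starts the splicing of Xbp1 mRNA into a form that encodes an active factor. Both factors raise genes for chaperones, disulfide exchange and ER-associated degradation (ERAD), which sends misfolded proteins to the cytosol for destruction by the proteasome, while a separate arm through the kinase PERK raises ATF4 and CHOP targets. The arm through IRE1 and XBP1 is best known among blood cells for plasma cells, and mouse studies also place XBP1 in eosinophil development. Gene counts as deposited do not separate spliced from unspliced Xbp1, nor whole from cleaved ATF6.

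The ER stress response element (ERSE, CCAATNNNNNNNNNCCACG, in which N is any base) is the promoter motif through which ATF6 and the NF-Y factor are known to act. It was searched on both strands from 250 bases before to 50 bases after the start of each gene in RefSeq promoters (GRCm38.p6, the assembly that mm10 denotes), a table that held 29 of the 34 members. ERSE was present in 10 of the 29 member promoters (34.5%) and in 37 of all 27025 genes in the table (0.137%). The members were chosen as genes of the ATF6 and XBP1 arm, so a higher share among them was likely in advance. The windows below are shown because ERSE is the known link between these factors and the members. Each is printed 5′ to 3′ in the direction of the motif, with the fixed bases of the motif in capitals and the coordinates and strand of the printed bases.
Calr ERSE, chr8:84847065-84847103, plus strand: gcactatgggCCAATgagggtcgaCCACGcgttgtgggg
Hsp90b1 ERSE, chr10:86705628-86705666, minus strand: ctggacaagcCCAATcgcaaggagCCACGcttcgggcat
Hsp90b1 ERSE, chr10:86705523-86705561, plus strand: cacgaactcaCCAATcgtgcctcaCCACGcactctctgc
Pdia6 ERSE, chr12:17266481-17266519, plus strand: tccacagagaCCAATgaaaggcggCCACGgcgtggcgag
Creld2 ERSE, chr15:88819510-88819548, minus strand: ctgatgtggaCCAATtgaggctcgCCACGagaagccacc
Dnajc3 ERSE, chr14:118937817-118937855, plus strand: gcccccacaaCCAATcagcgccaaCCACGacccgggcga
Ero1lb ERSE, chr13:12565672-12565710, minus strand: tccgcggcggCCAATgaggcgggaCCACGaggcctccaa
Derl3 ERSE, chr10:75893232-75893270, minus strand: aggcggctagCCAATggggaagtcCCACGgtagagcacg
Syvn1 ERSE, chr19:6046522-6046560, plus strand: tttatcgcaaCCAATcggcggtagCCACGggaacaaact
Canx ERSE, chr11:50325790-50325828, minus strand: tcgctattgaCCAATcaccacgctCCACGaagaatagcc
Hspa5 ERSE, chr2:34772020-34772048, plus strand: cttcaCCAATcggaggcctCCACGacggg
Of the 10 members with this motif, 7 were higher in KD_MV (Calr, Hsp90b1, Pdia6, Creld2, Dnajc3, Ero1lb and Derl3), 2 were lower (Hspa5 and Canx) and Syvn1 did not pass the test, in a comparison where 27.8% of all tested genes were called higher and 24.9% lower. Among all 34 members 44.1% were called higher and 29.4% lower, and a link between motif and direction was not tested. With library size only, 8 of the 10 were higher and 0 lower, where 7455 of all 16071 tested genes were higher and 2010 lower. Syvn1 then passed the test (0.88), and Hspa5 (-0.37) and Canx (0.11) did not. The calls of Hspa5 and Canx as lower thus rest on the scaling, and so does the sign of Canx but not that of Hspa5. Their ratios to Calr within a library, given below, do not depend on the scaling and separated the groups. Of the 27 other genes with the motif, 7 were tested, of which 4 were higher and 1 was lower.

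Herpud1, the member with the largest fall, held no exact match to ERSE and carried other motifs. The last bases before its start (ccaatggatggcagccac) follow ERSE up to its final base, and near matches were not counted in any gene. ERSE-II (ATTGGNCCACG), a shorter element known to be read by ATF6 and XBP1, was found in the promoters of Herpud1 and Dnajb11 and in 0.0444% of all genes. The C/EBP-ATF response element (CARE, TGATGCAA), known as a site for ATF4 dimers, was found among the members in Herpud1 alone and in 1.03% of all genes. The core TGACGTG, bound by ATF6 and XBP1, was found among the members in Hspa5 alone and in 2.22% of all genes. The windows around them are printed in the direction of each motif. The ERSE-II of Dnajb11 lies after the start, at bases 8 to 18, and is not printed.
Herpud1 ERSE-II, chr8:94386367-94386397, plus strand: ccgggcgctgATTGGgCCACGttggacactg
Herpud1 CARE, chr8:94386307-94386334, minus strand: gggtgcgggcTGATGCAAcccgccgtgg
Hspa5 ATF6-XBP1 core, chr2:34771923-34771949, plus strand: ggcgtagcaaTGACGTGagttgcggag
Of the 78 other tested genes with TGATGCAA in the window, 40 were lower and 14 higher with TMM scaling. Of 337 other tested genes with TGACGTG, 105 were lower and 90 higher, and of 6 with ERSE-II, 3 were lower and 3 higher. Among all tested genes 24.9% were lower and 27.8% higher. These motif counts were not repeated with library size only. A match of letters is a description of the sequence and not a measured binding site.

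The 250 bases before the start are given for Calr, the member with the highest level in KD_MV, and for Herpud1, on the strand of the gene, so that ERSE in Calr reads as its reverse complement (CGTGG to ATTGG) and CARE in Herpud1 reads as TTGCATCA.
Calr promoter, chr8:84846932-84847181, minus strand: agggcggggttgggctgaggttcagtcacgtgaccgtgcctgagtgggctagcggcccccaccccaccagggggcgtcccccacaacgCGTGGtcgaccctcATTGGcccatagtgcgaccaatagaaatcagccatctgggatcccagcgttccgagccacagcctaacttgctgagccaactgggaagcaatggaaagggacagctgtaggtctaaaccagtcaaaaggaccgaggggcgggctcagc
Herpud1 promoter, chr8:94386179-94386428, plus strand: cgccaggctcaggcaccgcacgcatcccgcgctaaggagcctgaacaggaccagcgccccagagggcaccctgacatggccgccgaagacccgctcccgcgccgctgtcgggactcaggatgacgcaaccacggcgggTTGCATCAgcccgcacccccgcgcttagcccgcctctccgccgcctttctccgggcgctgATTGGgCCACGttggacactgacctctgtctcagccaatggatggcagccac

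**Figure D1:**
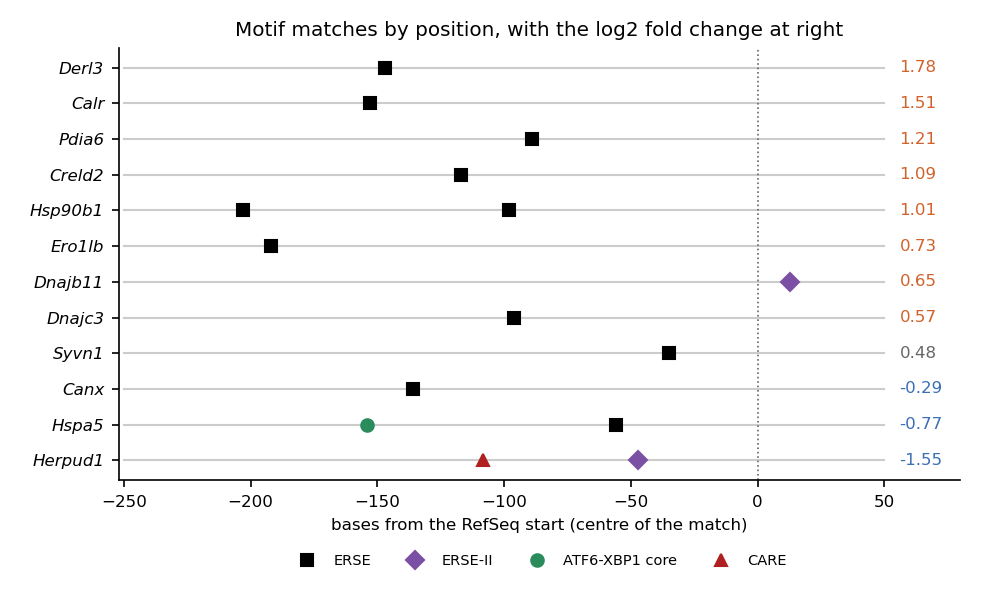
Positions of the 4 motifs in the promoters of the 12 members that hold one, in bases from the RefSeq start (x axis; each mark is the centre of a match), with the log2 fold change at the right (orange called higher, blue called lower, grey not called). ERSE stands within the 250 bases before the start both in members that rose, such as Calr (1.51), and in Hspa5 (-0.77) and Canx (-0.29), which fell with TMM scaling but were not called with library size only (-0.37 and 0.11).

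Of the 34 members, 15 were higher in KD_MV (44.1% against the 27.8% called higher among all genes), 10 were lower (29.4% against 24.9%) and 9 did not pass the test, with edgeR's quasi-likelihood test at an adjusted p of 0.05. Their median log2 fold change was 0.36, and that of all tested genes was 0.03. The groups did not overlap, with KD_MV above Ctrl_MV, in 17 members (32% of all tested genes did so), and with KD_MV below in 11 (29.3% of all genes). With library size as the only scaling 23 members were higher and 6 lower, where 7455 of all 16071 tested genes were higher and 2010 lower. When tested against a fold threshold of 1.5, 12 of the called members lost their call. Without KD_MV replicate 3, the library that stood apart, 17 were higher and 10 lower, and leaving the hemoglobin genes out of the fit moved none of the 34 members across the threshold. By role, most folding and disulfide genes were higher, and more degradation genes were lower than higher with TMM scaling but not with library size only.

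**Figure D2:**
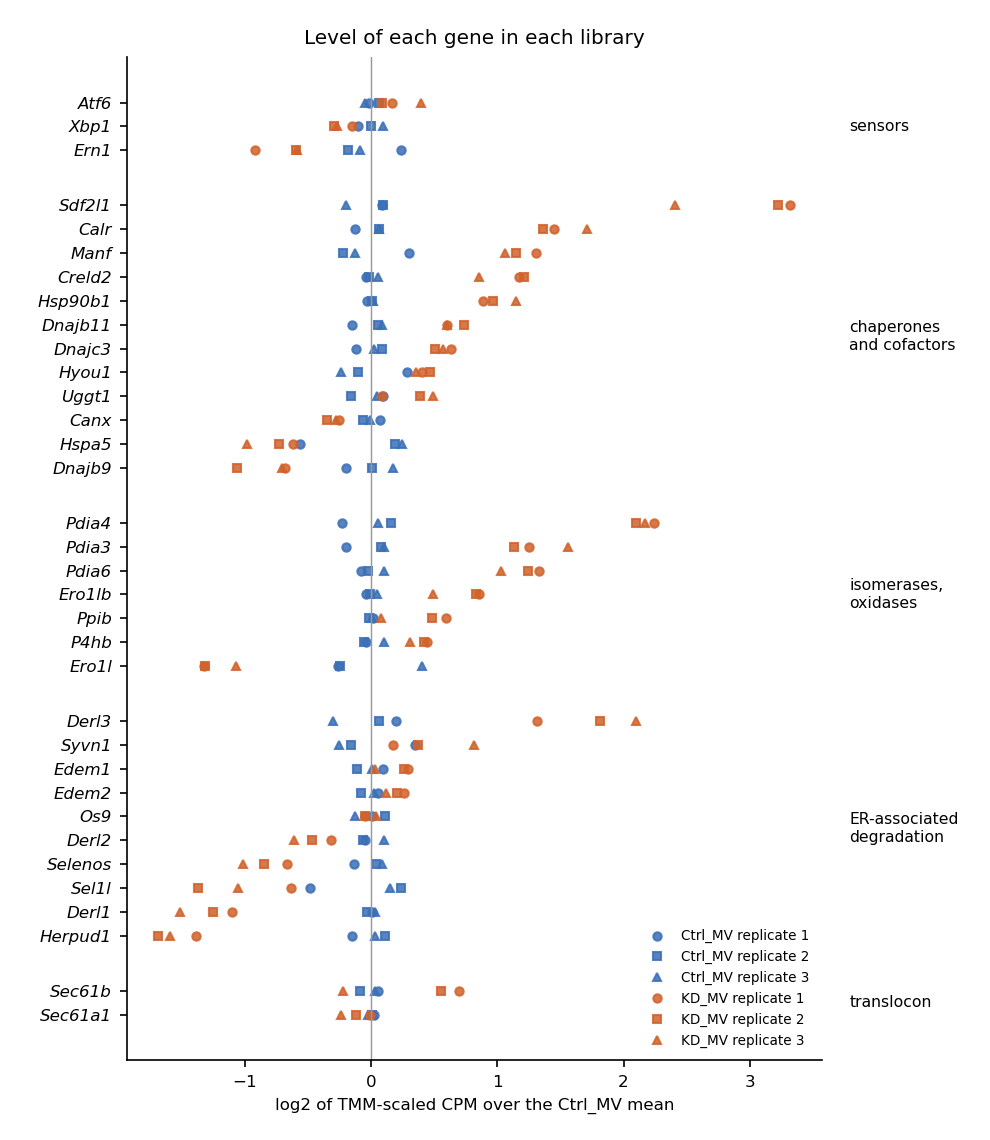
Level of each member in each of the 6 libraries as the log2 of its TMM-scaled CPM over the Ctrl_MV mean (x axis), with members grouped by role (y axis), Ctrl_MV in blue and KD_MV in orange, and the replicate number given by the shape. The KD_MV points of Sdf2l1, Pdia4 and Calr stand far to the right of Ctrl_MV, those of Herpud1, Ero1l and Derl1 far to the left, and KD_MV replicate 3 stands apart from the other KD_MV libraries in Sdf2l1, Ppib and Sec61b.

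Of the 3 sensors and transcription factors 0 rose and 1 fell with TMM scaling, whereas with library size only 1 rose (Atf6, 0.62, edgeR adjusted p = 0.000894) and 0 fell. Ern1, which encodes IRE1 (chromosome 11, 106394650 to 106487852, mm10), stood at 50.8, 37.8 and 40.5 CPM in Ctrl_MV (replicates 1, 2 and 3, in this order throughout) and at 22.7, 28.5 and 28.7 CPM in KD_MV. All KD_MV libraries lay below all Ctrl_MV libraries. The log2 fold change was -0.69 ± 0.15 (SE; edgeR adjusted p = 0.00415), and the call was lost with library size only (-0.29, adjusted p = 0.126). Xbp1 (chromosome 11, 5520659 to 5525893) stood at 115, 124 and 132 CPM in Ctrl_MV and 112, 101 and 103 CPM in KD_MV. The groups did not overlap, but the difference missed the threshold (-0.24 ± 0.10, adjusted p = 0.068). Xbp1 was called lower with RLE factors (-0.265, edgeR adjusted p = 0.0465) and with a filter of 1 CPM (-0.254, adjusted p = 0.0428). Its sign turned with library size only (0.17), and it was called higher with limma on log2(TPM + 1) (0.37, adjusted p = 0.00625). Atf6 (chromosome 1, 170704674 to 170867771) stood at 167, 175 and 163 CPM in Ctrl_MV and 188, 179 and 222 CPM in KD_MV. It was higher in each KD_MV library by a margin that did not pass the test (0.22 ± 0.11, adjusted p = 0.111).

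Among the 12 chaperones and cofactors 8 rose and 3 fell, with a median log2 fold change of 0.61. Sdf2l1, a cofactor of the Hsp70 chaperone BiP (chromosome 16, 17130138 to 17132383), had the largest rise of all members. Its levels were 6.63, 6.66 and 5.42 CPM in Ctrl_MV and 62.3, 58.4 and 33.1 CPM in KD_MV. Every KD_MV library was several times above every Ctrl_MV library, and KD_MV replicate 3 was the lowest of its group. The fitted change was 8.22-fold (log2 fold change 3.04 ± 0.24, edgeR adjusted p = 2.07e-05). Calr, the lectin chaperone calreticulin (chromosome 8, 84841850 to 84846934), whose ERSE is printed above, stood at 298, 339 and 340 CPM in Ctrl_MV and 887, 836 and 1067 CPM in KD_MV. It rose 2.86-fold (1.51 ± 0.12, adjusted p = 2.45e-05) and had the highest level of all members in each of the 3 KD_MV libraries. Hsp90b1, the ER Hsp90 known as GRP94 (chromosome 10, 86690209 to 86705509), stood at 240, 247 and 248 CPM in Ctrl_MV and 453, 480 and 544 CPM in KD_MV. The Ctrl_MV libraries lay close together, and the rise was 2.01-fold (1.01 ± 0.10, adjusted p = 7.12e-05). Exons of Hsp90b1 overlap a pseudogene on the other strand and short transcripts on its own, so its count is uncertain to that extent.

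Manf, a secreted ER factor that binds BiP (chromosome 9, 106838312 to 106891979), stood at 56.3, 39.3 and 41.9 CPM in Ctrl_MV and 113, 101 and 95.7 CPM in KD_MV (1.17 ± 0.15, edgeR adjusted p = 0.000237). Its exons overlap Rbm15b on the same strand and Dcaf1 on the other, so the split of reads between them is uncertain. Creld2, an ER-stress-induced protein with disulfide isomerase activity, stood at 26.0, 26.4 and 27.6 CPM in Ctrl_MV and 60.1, 61.6 and 48.1 CPM in KD_MV (1.09 ± 0.12, adjusted p = 0.000114). The BiP co-chaperones Dnajb11 and Dnajc3 rose less. Dnajb11 went from 69.0 ± 6.02 to 108 ± 5.90 CPM (mean ± SD of 3 libraries; log2 fold change of 0.65, edgeR adjusted p = 0.000823) and Dnajc3 from 34.5 ± 2.44 to 51.2 ± 2.27 CPM (0.57, adjusted p = 0.00155). For Hyou1, an Hsp110-type exchange factor of BiP, Ctrl_MV replicate 1 at 102 CPM stood above the other Ctrl_MV libraries at 77.8 and 71.0 CPM, and KD_MV held 110, 115 and 107 CPM. Its rise (0.41, adjusted p = 0.0344) was lost when any of 4 single libraries was left out (KD_MV replicates 1 and 2 and Ctrl_MV replicates 2 and 3, adjusted p from 0.0702 to 0.119). Uggt1, the glucosyltransferase that checks glycoprotein folding, did not pass the test (0.33, adjusted p = 0.0557), and passed it without KD_MV replicate 1 (0.44, adjusted p = 0.02).

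The 3 members of this role that fell include BiP itself. Hspa5, which encodes BiP, the main Hsp70 of the ER lumen (chromosome 2, 34771970 to 34777547), stood at 449, 755 and 783 CPM in Ctrl_MV and 432, 399 and 335 CPM in KD_MV. Ctrl_MV replicate 1 lay far below the other Ctrl_MV libraries and just above the highest KD_MV library, so the groups barely separate. The log2 fold change was -0.77 ± 0.21 (edgeR adjusted p = 0.0124), and the call was lost with library size only (-0.37, adjusted p = 0.16), without the filter on low counts (-0.72, adjusted p = 0.0511) and with limma on TPM (-0.07, adjusted p = 0.709). Dnajb9, a BiP co-chaperone known as ERdj4 that represses IRE1, stood at 33.0, 38.0 and 42.7 CPM in Ctrl_MV and 23.6, 18.1 and 23.2 CPM in KD_MV, without overlap (-0.81 ± 0.15, adjusted p = 0.00166), and the call was lost with limma on TPM (-0.22, adjusted p = 0.162). The membrane lectin chaperone Canx, calnexin, stood at 470, 428 and 445 CPM in Ctrl_MV and 376, 351 and 369 CPM in KD_MV. Its small fall (-0.29 ± 0.09, adjusted p = 0.026) turned to 0.11 with library size only and to 0.28 with limma on TPM, so its direction depends on the scaling. The call was also lost without the filter on low counts (adjusted p = 0.0679) and when any of 4 single libraries was left out (KD_MV replicates 1 and 2 and Ctrl_MV replicates 1 and 3, adjusted p from 0.0542 to 0.101).

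**Figure D3:**
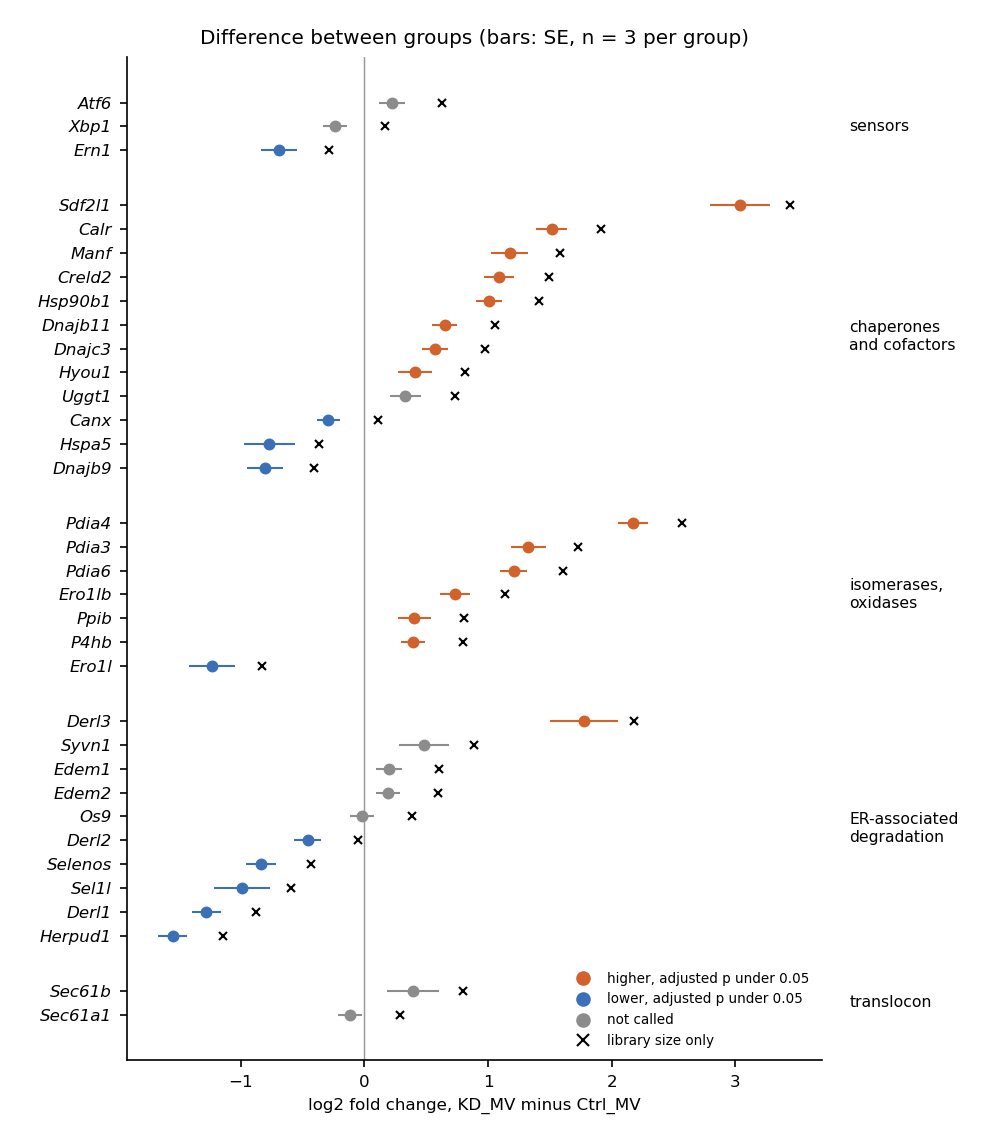
Log2 fold change of each member, KD_MV minus Ctrl_MV (x axis), by role (y axis), with the standard error as a bar (n = 3 per group), coloured by the call, and the value with library size as the only scaling as a cross. The crosses lie about 0.40 to the right of the points, which turns the sign of Canx, Xbp1, Os9 and Sec61a1 and leaves Sdf2l1 (3.04), Pdia4 (2.17), Herpud1 (-1.55) and Derl1 (-1.28) on their sides of 0.

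The 7 isomerases and oxidases were nearly all higher: 6 rose, 1 fell, and the median log2 fold change was 0.73. Pdia4, a disulfide isomerase also known as ERp72 (chromosome 6, 47796141 to 47813430), stood at 25.8, 33.7 and 31.4 CPM in Ctrl_MV and 143, 130 and 136 CPM in KD_MV. The KD_MV libraries lay close together and far above every Ctrl_MV library, and the fitted rise was 4.50-fold (2.17 ± 0.12, edgeR adjusted p = 3.75e-06). Pdia3, the isomerase ERp57 that works with calreticulin and calnexin (chromosome 2, 121413775 to 121438687), stood at 170, 207 and 210 CPM in Ctrl_MV and 464, 430 and 578 CPM in KD_MV (1.33 ± 0.14, adjusted p = 9.04e-05). Pdia6, the isomerase P5 (chromosome 12, 17266545 to 17284770), stood at 107, 111 and 121 CPM in Ctrl_MV and 283, 267 and 231 CPM in KD_MV (1.21 ± 0.11, adjusted p = 4.25e-05). These 3 isomerases rose 2.31-fold to 4.50-fold with no overlap of the groups. Exons of Pdia3 and Pdia6 overlap those of Catsper2 and Atp6v1c2 on the other strand, and whether strand was used in the counting is not stated in the sources. The same limit holds for Ppib (Snx22), Derl2 (Mis12), Syvn1 (Mrpl49), Sec61a1 (Gm44170) and Dnajb9 (Mir5627), each with the overlapping gene in brackets.

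P4hb, the founding disulfide isomerase PDI, was the most abundant isomerase gene in Ctrl_MV and changed less, from 348 ± 21.2 to 456 ± 21.4 CPM (0.39, edgeR adjusted p = 0.00861). Ppib, the ER proline isomerase cyclophilin B, stood at 110, 107 and 109 CPM in Ctrl_MV and 164, 152 and 115 CPM in KD_MV. KD_MV replicate 3 was close to the Ctrl_MV libraries, and the rise (0.40, adjusted p = 0.0317) was lost when any library but that one was left out (adjusted p from 0.0767 to 0.113). The oxidases that recharge disulfide isomerases went opposite ways. Ero1l, which encodes ERO1α (chromosome 14, 45283092 to 45318572), stood at 802, 812 and 1271 CPM in Ctrl_MV and 383, 385 and 457 CPM in KD_MV (-1.23 ± 0.19, adjusted p = 0.000644). Ero1lb, which encodes its paralog ERO1β (chromosome 13, 12565874 to 12611396), stood at 49.3, 50.2 and 52.3 CPM in Ctrl_MV and 91.7, 89.8 and 70.9 CPM in KD_MV (0.73 ± 0.12, adjusted p = 0.000941). Neither oxidase overlapped between the groups.

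Among the 10 ERAD genes 5 fell, 1 rose and 4 did not pass the test, with a median log2 fold change of -0.24. With library size only, 5 were higher and 4 lower, so the counts of this role depend on the scaling. Their median (0.16) still stayed below that of all genes (0.43) with library size only. Herpud1, a membrane protein that gathers the ERAD complex (chromosome 8, 94386438 to 94395377), had the largest fall of all members. Its levels were 241, 288 and 274 CPM in Ctrl_MV and 102, 83.1 and 88.9 CPM in KD_MV. Every Ctrl_MV library lay far above every KD_MV library, and the fall was 2.93-fold (-1.55 ± 0.12, edgeR adjusted p = 1.58e-05). Derl1, a derlin of the exit channel for misfolded proteins (chromosome 15, 57869502 to 57892418), stood at 361, 351 and 366 CPM in Ctrl_MV and 168, 151 and 126 CPM in KD_MV, a fall of 2.43-fold (-1.28 ± 0.12, adjusted p = 4.55e-05). Herpud1 and Derl1 kept this call under every alternative that was run.

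The derlins did not move together. Derl2 (chromosome 11, 71007164 to 71019841) stood at 51.5, 50.9 and 57.0 CPM in Ctrl_MV and 42.7, 38.4 and 34.8 CPM in KD_MV (-0.46 ± 0.11, edgeR adjusted p = 0.00774). The call was lost with library size only (-0.06, adjusted p = 0.691), and the sign turned with limma on TPM (0.17). Derl3 (chromosome 10, 75893413 to 75895941) was the least abundant member, at 0.929, 0.847 and 0.656 CPM in Ctrl_MV and 2.02, 2.85 and 3.48 CPM in KD_MV. With only 22 to 166 counts per library it rose 3.43-fold (1.78 ± 0.27, adjusted p = 0.000721). Derl1 therefore fell and Derl3 rose, each with no overlap of the groups.

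Sel1l and Syvn1 encode the adaptor and the ubiquitin ligase HRD1 of the main ERAD complex. Sel1l (chromosome 12, 91806043 to 91849157) stood at 93.9, 154 and 145 CPM in Ctrl_MV and 84.3, 50.6 and 63.3 CPM in KD_MV. Ctrl_MV replicate 1 and KD_MV replicate 1 lay nearest each other, and the fall was -0.99 ± 0.23 (edgeR adjusted p = 0.00567); with limma on TPM the call was lost (-0.37, adjusted p = 0.101). Syvn1 (chromosome 19, 6046576 to 6053712) stood at 105, 73.7 and 69.0 CPM in Ctrl_MV and 93.1, 107 and 145 CPM in KD_MV. The groups overlapped and the difference missed the threshold (0.48 ± 0.20, adjusted p = 0.0742); it passed without Ctrl_MV replicate 1 (0.69, adjusted p = 0.024) or KD_MV replicate 1 (0.61, adjusted p = 0.0399). Selenos, a selenoprotein that recruits the ATPase VCP, fell from 55.3 ± 4.31 to 31.0 ± 3.71 CPM (-0.83, adjusted p = 0.000512), and the call was lost with limma on TPM (-0.19, adjusted p = 0.155). The mannose-trimming or mannose-reading genes Edem1 (0.20), Edem2 (0.19) and Os9 (-0.02) did not pass the test (adjusted p from 0.12 to 0.886). For Os9 the sign turned under several settings, and Edem1 passed without KD_MV replicate 3 (0.27, adjusted p = 0.032).

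The translocon subunits, which form the pore through which new proteins enter the ER, did not pass the test, although both were called higher with library size only (Sec61a1 0.29, Sec61b 0.80). Sec61a1 stood at 206, 204 and 199 CPM in Ctrl_MV and 202, 187 and 172 CPM in KD_MV (-0.12 ± 0.10, edgeR adjusted p = 0.328), with overlap of the groups. Sec61b stood at 36.9, 33.4 and 36.3 CPM in Ctrl_MV and 57.5, 52.2 and 30.4 CPM in KD_MV (0.39 ± 0.21, adjusted p = 0.145). KD_MV replicate 3 lay below all Ctrl_MV libraries while the other KD_MV libraries lay above them, and without it Sec61b was called higher (0.62, adjusted p = 0.00131).

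Levels of different genes were set side by side with the deposited TPM, which divide by gene length. In Ctrl_MV the members with the highest mean TPM were Hspa5 (356 ± 59.8), Ero1l (284 ± 72.6), Herpud1 (206 ± 17.1) and Calr (199 ± 10.2; SD, n = 3). Herpud1 and Calr lay within their spread of each other, and so did Hspa5 and Ero1l. In KD_MV the order began with Calr (837 ± 113), followed by Pdia3 (347 ± 56.4), Hsp90b1 (345 ± 38.0) and Hspa5 (338 ± 47.8), whose levels did not differ beyond their spread. Herpud1 went from rank 3 to rank 14 of the 34 members, Pdia4 from rank 28 to 13, Sdf2l1 from 33 to 18, and Derl3 was last in both. The TPM of all 34 members summed to 2735 ± 91.7 in Ctrl_MV and 4819 ± 23.9 in KD_MV, a ratio of 1.76, on a scale on which the median of all genes rose as well (by 0.51 in log2(TPM + 1)). In TMM-scaled CPM the same 34 members summed to 5691 ± 475 in Ctrl_MV and 6136 ± 168 in KD_MV, a ratio of 1.08. The TPM sum was made up differently in the groups: chaperones and cofactors went from 1022 ± 30.9 to 2267 ± 58.0, isomerases and oxidases from 794 ± 83.8 to 1535 ± 17.2, and ERAD genes from 627 ± 12.5 to 567 ± 13.1 TPM. In TMM-scaled CPM the ratios of KD_MV to Ctrl_MV for these sums were 1.35 for chaperones and cofactors, 1.095 for isomerases and oxidases and 0.654 for ERAD genes, each lower than in TPM.

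The ratio of a pair of genes within a library does not depend on how libraries are scaled. Pairs with related roles were chosen with the fold changes known, so their ratios are a description of how unequally the partners moved. An exact two-sided permutation test of 3 against 3 libraries cannot give a p below 0.1, and each of the 8 pairs gave p = 0.1. TPM of Hspa5 over Hsp90b1 was 2.46, 3.33 and 3.40 in Ctrl_MV and 1.20, 1.05 and 0.736 in KD_MV. Hspa5 over Calr was 1.53, 1.88 and 1.95 in Ctrl_MV and 0.478, 0.468 and 0.293 in KD_MV. BiP transcripts thus went from exceeding those of calreticulin in every Ctrl_MV library to fewer in every KD_MV library. Canx over Calr, the membrane and soluble lectin chaperones, went from 0.903, 0.727 and 0.754 to 0.247, 0.241 and 0.201. Ero1l over Ero1lb went from 15.1, 14.6 and 22.5 to 3.95, 4.04 and 5.86. Dnajb9 over Dnajb11 went from 0.400, 0.423 and 0.481 to 0.176, 0.135 and 0.186. In all of these the Ctrl_MV libraries lay above the KD_MV libraries.

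Herpud1 over Pdia4 separated the groups by 12.7-fold, with 13.01, 11.8 and 12.4 in Ctrl_MV and 1.03, 0.952 and 0.939 in KD_MV. Derl1 over Derl3 was 84.2, 90.9 and 136 in Ctrl_MV and 22.1, 14.8 and 10.2 in KD_MV. The summed TPM of the 10 ERAD genes over that of the folding genes (chaperones, cofactors, isomerases and oxidases) was 0.360, 0.359 and 0.320 in Ctrl_MV and 0.154, 0.149 and 0.144 in KD_MV. The deposited TPM did not divide every library by the same gene length: TPM per count moved by more than 1.1 times between libraries for 8 of the 34 members, most for Manf (1.70) and Uggt1 (1.67). Ratios of raw counts for the same 8 pairs also did not overlap between the groups, with Ctrl_MV above KD_MV by 13.3-fold for Herpud1 over Pdia4, 8.27-fold for Derl1 over Derl3 and 3.33-fold for Hspa5 over Hsp90b1.

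**Figure D4:**
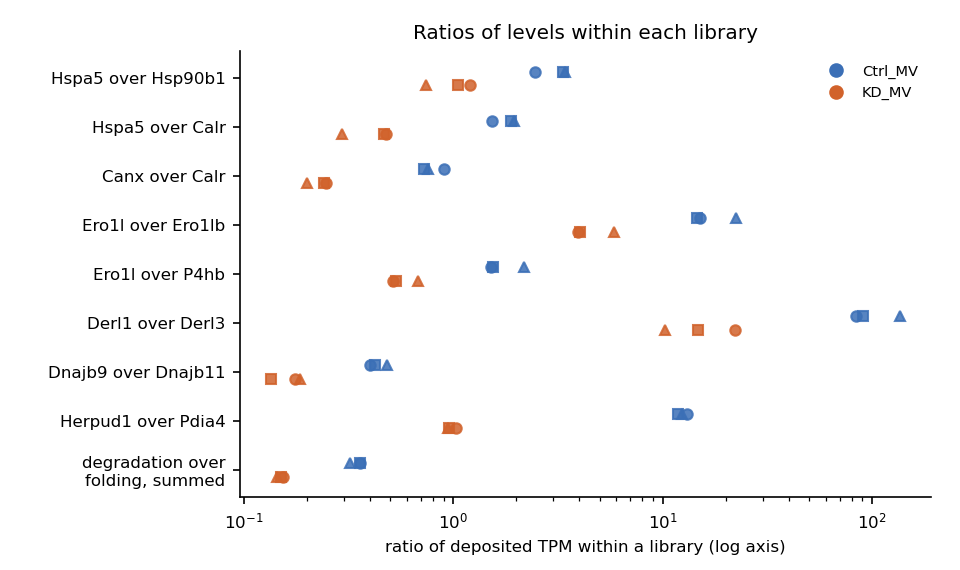
Ratio of the deposited TPM of one gene, or of one summed set, to another within each library (x axis, log scale), with Ctrl_MV in blue, KD_MV in orange and the replicate number given by the shape (circle 1, square 2, triangle 3). All 3 Ctrl_MV libraries lie to the right of all 3 KD_MV libraries in each row, from 2.32-fold for degradation over folding genes to 12.7-fold for Herpud1 over Pdia4.

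The members were set beside 8 lists of other genes that handle proteins in or near the ER. With library size only, for which counts follow with each list, 7455 of all 16071 tested genes were higher and 2010 lower. Among 24 genes of N-glycan transfer and trimming 12 were higher and 2 lower (20 and 1 with library size only), with a median of 0.37. Rpn1, a subunit of the oligosaccharyltransferase, rose from 70.9 ± 2.56 to 159 ± 8.61 CPM (1.16, edgeR adjusted p = 1.94e-05), and Alg6, which adds glucose to the glycan precursor, rose from 1.01 ± 0.32 to 6.37 ± 0.81 CPM (2.65, adjusted p = 4.20e-05). The oligosaccharyltransferase subunits Krtcap2 (-1.10) and Magt1 (-0.28) fell, and leaving out any library but KD_MV replicate 3 left 1 of the list lower. Of 27 tested other folding enzymes and co-chaperones 11 were higher and 5 lower (17 and 3 with library size only), with a median of 0.32. Prdx4, an ER peroxiredoxin, rose from 5.51 ± 0.45 to 18.6 ± 4.91 CPM (1.75, adjusted p = 0.000158) and the proline isomerase gene Fkbp2 rose by 1.28, while the thioredoxin-family genes Txndc12 (-1.15) and Tmx3 (-0.92) fell. In both lists more genes rose than fell, as among the folding members.

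The 28 tested other ERAD genes leaned the other way, with 17 lower and 2 higher and a median of -0.47. With library size only 4 were lower and 6 higher, so the counts turn with the scaling. Their median (-0.07) still stayed below that of all genes (0.43) with library size only. Erlin1, which binds inositol trisphosphate receptors for degradation, fell from 113 ± 20.7 to 23.4 ± 2.85 CPM (-2.28, edgeR adjusted p = 1.01e-05), and the deglycosylating enzyme gene Ngly1 fell by 0.83 on the log2 scale. The ubiquitin ligase gene Rnf5 (0.51) and Bcap31 (0.35), which encodes a membrane cargo chaperone, were the 2 that rose, and 1 was called higher without KD_MV replicate 1 or Ctrl_MV replicate 1. Among 24 genes of the translocon, signal recognition particle and signal peptidase 5 were higher and 5 lower, with a median of -0.02 (15 and 1 with library size only). Those counts rested on single libraries: 3 were higher when replicate 1 of either group or KD_MV replicate 2 was left out and 2 without Ctrl_MV replicate 2, and the number lower was 1 without KD_MV replicate 2, 3 without Ctrl_MV replicate 2 and 2 without Ctrl_MV replicate 3. Sec62 (-0.70) and the receptor gene Srpr (-0.37) fell and Tram2 (0.77) and Spcs3 (0.55) rose. Among 32 genes of ER export and retrieval 7 were higher and 7 lower, with a median of -0.09 (17 and 3 with library size only), and 4 were higher when replicate 1 of either group or KD_MV replicate 2 was left out. Lman1 and Mcfd2 encode the partners of one cargo receptor and moved apart: Lman1 rose from 31.0 ± 1.65 to 60.1 ± 2.99 CPM (0.95, adjusted p = 7.70e-05) and Mcfd2 fell from 180 ± 16.5 to 66.9 ± 9.86 CPM (-1.43, adjusted p = 4.43e-05). Copz1 (0.72) rose and Sec24a (-0.97) fell in the coat genes.

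Among 20 tested UPR regulators 4 were higher and 9 lower, with a median of -0.11. With library size only 9 were higher and 3 lower, so the counts turn, while their median (0.29) stayed below that of all genes (0.43). Rtcb, the ligase that joins the exons of Xbp1 after IRE1 has cut it, rose from 90.0 ± 9.26 to 162 ± 10.2 CPM (0.84, edgeR adjusted p = 0.000242). Eif2ak3, which encodes PERK, rose from 29.1 ± 0.65 to 43.6 ± 2.98 CPM (0.58, adjusted p = 0.00132). The cell death gene Bax, whose product is known to bind IRE1, fell from 383 ± 15.3 to 160 ± 37.7 CPM (-1.26, adjusted p = 0.000314), and Creb3l4, a relative of Atf6, fell by 1.49 on the log2 scale.

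The list of ATF4 and CHOP genes was lower nearly throughout, and the activity of PERK was not measured. Of 26 genes of the ATF4 and CHOP arm, 25 were lower and 0 higher (23 and 0 with library size only), with a median of -2.11. Chac1, a glutathione-degrading enzyme and ATF4 target, fell from 93.6 ± 5.80 to 1.58 ± 0.27 CPM (-5.89, edgeR adjusted p = 2.47e-07), and Sesn2, sestrin 2, fell from 238 ± 7.44 to 23.7 ± 1.02 CPM (-3.33, adjusted p = 2.47e-07). Cytosolic heat shock chaperones, which serve folding outside the ER, had 18 of 22 genes higher and 0 lower (20 and 0 with library size only), with a median of 1.03, and 1 was lower without KD_MV replicate 3. The Hsp110 gene Hsph1 rose from 38.0 ± 5.98 to 180 ± 8.12 CPM (2.25, adjusted p = 3.85e-06) and the Hsp90 co-chaperone gene Fkbp4 from 50.6 ± 8.91 to 199 ± 6.98 CPM (1.97, adjusted p = 9.52e-06). These lists had the most one-sided counts of the 8, and both kept their side with library size only.

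**Figure D5:**
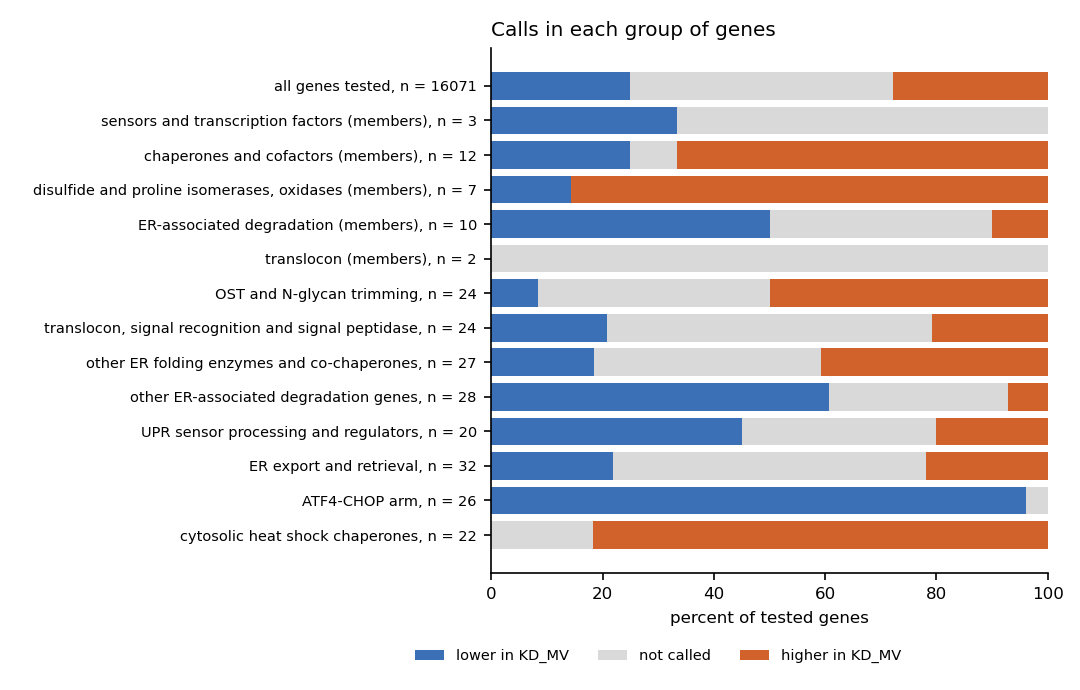
Share of tested genes called lower (blue), not called (grey) and called higher (orange) in KD_MV with TMM scaling (x axis, percent), for all 16071 genes, the 5 roles of the members and the 8 lists of other genes, with the number tested after each name. Isomerases and oxidases (6 of 7 higher) and heat shock chaperones (18 of 22 higher) lie at one end and the ATF4 and CHOP arm (25 of 26 lower) at the other. With library size only, 7455 of all genes were higher and 2010 lower. Under that scaling more genes were higher than lower also in both ERAD groups, the sensors and the UPR regulators.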

How the data were processed

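The authors deposited 1 table that holds counts, TPM and FPKM for every library, per the file headers. The deposited FPKM were not used. Reads went through Trim Galore, Subread and featureCounts on mm10, per the submitters' processing notes; their versions and the use of strand are not given there. Among counts from 1 to 20, 56.7% were even, and the reason was not tested.

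The deposited counts entered edgeR 4.0.16 (R 4.3.3): filterByExpr kept genes by a minimum count of 10 and a minimum total of 15, TMM gave the factors, and the quasi-likelihood test on group was two-sided with Benjamini-Hochberg adjustment over 16071 genes and a threshold of 0.05. The standard error of a log2 fold change is its size divided by the square root of its F statistic. The steps were tested on simulated counts. Deposited TPM served for levels between genes and for ratios within a library. Positions are those of GENCODE M21, which equalled the file's for 48580 rows.

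The members and lists were chosen with earlier results of these data known. Named genes were all members, Ezr, the 2 called genes with the smallest p in each direction of each list of other genes and the 3 most abundant members of each marker list, of which the text gives a part; Ly6g and Tnfrsf17 were named after their values were seen. Alternatives comprised RLE factors, upper-quartile factors, library size only, a filter that asks for 1 CPM in 3 libraries, no filter, voom in limma 3.58.1, DESeq2 1.42.0, limma on log2(TPM + 1) or log2(TPM + 0.1), a fold threshold of 1.5, an adjusted p of 0.01, a replicate block, leaving out each library or the hemoglobin genes, and summing gene IDs. Halved counts were added after seeing the data.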

Additional observations from a re-analysis of the deposited data

How the results depend on the processing

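Of the 25 called members, 11 kept their call and direction under every alternative run (Calr, Creld2, Derl3, Hsp90b1, Manf, Pdia3, Pdia4, Pdia6 and Sdf2l1 higher, Derl1 and Herpud1 lower). Relative to TMM, the median of all genes was higher by 0.40 on the log2 scale with library size only, by 0.48 on log2(TPM + 1), by 0.56 on log2(TPM + 0.1) and by 0.05 on log2(TPM + 1) without a filter. The fits on TPM also change the test and the gene length, and which of these moved a call was not tested. Members higher and lower numbered 23 and 6 with library size only, 25 and 3 with limma on log2(TPM + 1), 25 and 3 on log2(TPM + 0.1), 25 and 2 on log2(TPM + 1) without a filter, and 9 and 4 with a fold threshold of 1.5. The lists of other genes had 59 genes higher and 70 lower, and in the same order of settings 103 and 38, 114 and 29, 114 and 30, 110 and 32, and 26 and 34. All genes called higher and lower were 7455 and 2010, 7719 and 1228, 7690 and 1221, 8063 and 1338, and 2180 and 1705, and the fold threshold left 3885 calls of 8459.

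In 5 members the direction turned. With library size only the log2 fold changes were 0.11 for Canx, 0.38 for Os9, 0.29 for Sec61a1 and 0.17 for Xbp1. With limma on log2(TPM + 1), with and without a filter, they were 0.28 for Canx, 0.17 for Derl2, 0.55 for Os9, 0.45 for Sec61a1 and 0.37 for Xbp1, and on log2(TPM + 0.1) 0.28, 0.18, 0.56, 0.45 and 0.37. Os9 also turned with upper-quartile scaling (0.0031), without a filter on counts (0.0386) and without Ctrl_MV replicate 2 (0.0382), where leaving out single libraries gave -0.0798 to 0.0382.

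Leaving out each library in turn gave 13 to 17 members higher and 9 to 10 lower. The labels do not state whether the replicate numbers pair the libraries. Same-numbered libraries did not deviate together from their group means (r from -0.079 to -0.007). This cannot exclude pairing, because deviations within a group of 3 libraries are not independent of each other. With a replicate block 15 members were higher and 9 lower and 7799 genes were called, and among the members only the call of Canx was lost (adjusted p = 0.0643, edgeR). Depth limits Derl3 most, with 22 to 166 counts per library.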
